A study of Caenorhabditis elegans with 2 samples.

Results

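The LIM homeobox genes of C. elegans examined here were lim-7, lim-6, lim-4, lin-11, ceh-14, ttx-3 and mec-3, 7 of the 19985 protein-coding genes of the annotation. They were chosen by name, as members of 1 gene family, and not by any measured value, though with earlier results of these data known. The data are peak lists from chromatin immunoprecipitation and sequencing of whole hermaphrodite late embryos, collected 5 hours after synchronization by egg bleaching. The worms, of strain OP315, stably expressed CEH-14 whose C-terminal end was fused to GFP-FLAG, and chromatin was precipitated with an antibody against GFP. There was 1 group with 2 biological replicates, per the labels, all of it the same transgenic line, and no untagged or input library was analysed here. The transgene's promoter and insertion site are not stated in the labels. Because the chromatin came from whole embryos, a place occupied in a few neurons and a place not occupied cannot be told apart by the absence of an entry.

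LIM homeobox genes encode transcription factors with a homeodomain, which binds DNA at sites that often contain TAAT, and a pair of LIM domains, zinc-binding modules through which they contact partner proteins such as the LIM-binding cofactor LDB-1. The name LIM comes from lin-11 and mec-3 of the worm and Isl-1 of vertebrates. In C. elegans these genes are best known as terminal selectors, factors that switch on the genes of a mature neuron type and often keep their own gene active. The tagged protein, CEH-14, acts in the AFD thermosensory neurons and in ALA and BDU, among others, and its own gene is 1 of the 7.

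In these lists the counts of LIM homeobox genes with an entry were within 1 gene of the shares of all protein-coding genes, and no strong entry lay at any of their starts. The authors' optimal set from irreproducible discovery rate analysis (IDR, which compares the ranks of peaks between replicates) held 1681 peaks. These are the strongest entries of the list pooled from both replicates, so membership alone does not show that both ranked a peak alike. They placed a summit in the window of 1 of the 7 genes, lim-7, against 13.7% of all protein-coding genes. A gene's window runs from 5000 bases upstream of its outermost annotated start through the gene body. Within 1000 bases of an annotated start, 0 of 7 had an IDR summit, against 6.82% of protein-coding genes. With 7 genes, a count of 0 allows a share of up to 35.4% (Wilson 95% interval, counting error only), so even a share several times that of other genes could not have been told from 0 with so few genes. No test was made on the members as a list, since they were chosen with results of these data known.

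The relaxed lists, in which peaks and background regions are ranked together so that IDR can compare the replicates, had more entries at these genes. The pooled relaxed list of both replicates had 21766 entries, of which the 1681 strongest are the IDR peaks. It had a summit in the windows of 5 members, lim-7, lin-11, lim-4, lim-6 and ttx-3, against 70.3% of protein-coding genes. Within 1000 bases of a start it had an entry at 2 members, lin-11 and lim-4, against 42.1%. A summit in both replicates' own lists was met in the windows of 4 members, lim-7, lin-11, lim-4 and lim-6, against 58.2% of protein-coding genes, and replicate 1 alone added ttx-3. The windows of the 7 genes held 9 pooled entries, or 1.19 per 10 kb, against 2.19 per 10 kb over the windows of all protein-coding genes, which overlap each other. The members' windows are longer, with a median of 9.96 kb against 7.03 kb. An entry of a relaxed list is a ranked place and not a called peak.

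Of the 9 pooled entries, 5 had an entry in both replicates at 50% reciprocal overlap, 2 in replicate 1 only and 2 in replicate 2 only. By the members' own gene models, 3 summits lay in introns, 3 upstream, 2 in untranslated regions and 1 in a coding exon. No like share over all pooled entries is set beside these counts, so they describe the 9 entries only. The median member with an entry had its strongest at rank 4788 of the pooled list, against a median of 6154 over the 14048 protein-coding genes with an entry. Ranks here run from 1, the strongest by the authors' signal value, and each list has its own signal scale.

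**Figure D1:**
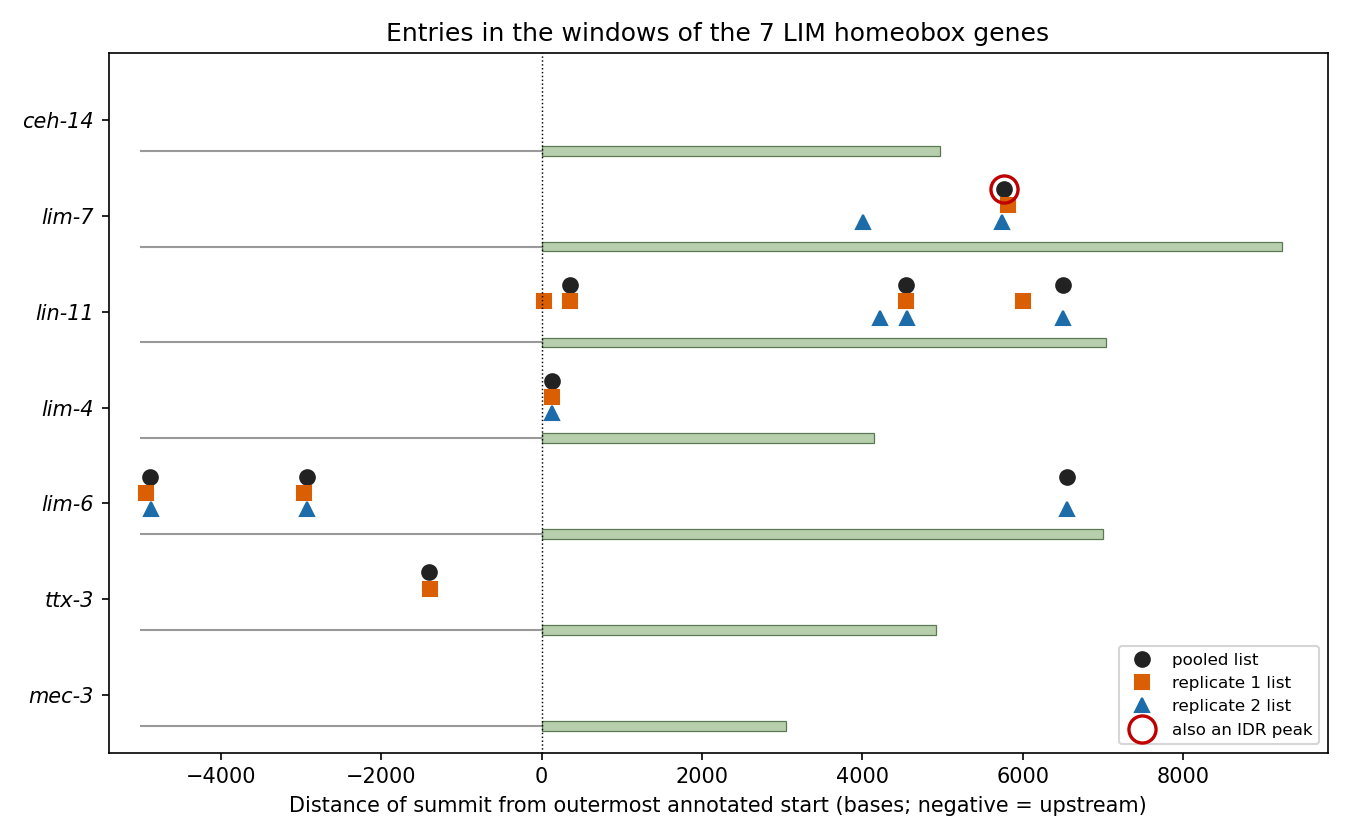
Summits of entries in the windows of the 7 genes, by distance in bases from the outermost annotated start, with negative values upstream. Green bars are gene bodies, grey lines the 5000 bases upstream, and the marker shape and colour give the list; the ring marks the IDR peak. The only ring is in lim-7 at 5765 bases, and the rows of ceh-14 and mec-3 are empty.

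The gene of the tagged protein itself had no entry in any list. ceh-14 (WBGene00000438, chromosome X, 7527769 to 7532732 in ce11, minus strand) had 0 entries in its window in the IDR, pooled, replicate 1 and replicate 2 lists. It lay in an entry-free stretch of 51269 bases of the pooled list (X, 7511330 to 7562598). The nearest pooled summit upstream was 30095 bases from its start, with rank 6646 and nearest to sto-1, and the nearest downstream was 16667 bases beyond its end, with rank 9846.

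Stretches of this length were rare in the relaxed lists. Of the 3369 stretches between neighbouring entries on chromosome X in the pooled list, 6 were as long or longer, that of ceh-14 included, and the median was 2680 bases. In replicate 1 the stretch measured 51168 bases, with 4 of 3252 as long or longer, and in replicate 2 it measured 58293 bases, with 4 of 3128. Both replicates thus had it among their longest on the chromosome. Of all protein-coding genes, 844 (4.22%) lay wholly in a pooled stretch at least as long, where genes that share a stretch are each counted. The stretch held 9 protein-coding genes, among them dpy-7 and col-174, which encode cuticle collagens. In the ce10 version of the pooled list, which was compared by length alone, chromosome X had a stretch of 51268 bases, and 6 stretches were as long or longer. The replicates' ce10 lists matched less closely. The closest length was 54227 bases in replicate 1, against 51168 in ce11, and 58239 in replicate 2, against 58293. The lists do not show whether peaks could be called there, so the absence of entries at ceh-14 cannot be read as absence of binding.

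**Figure D2:**
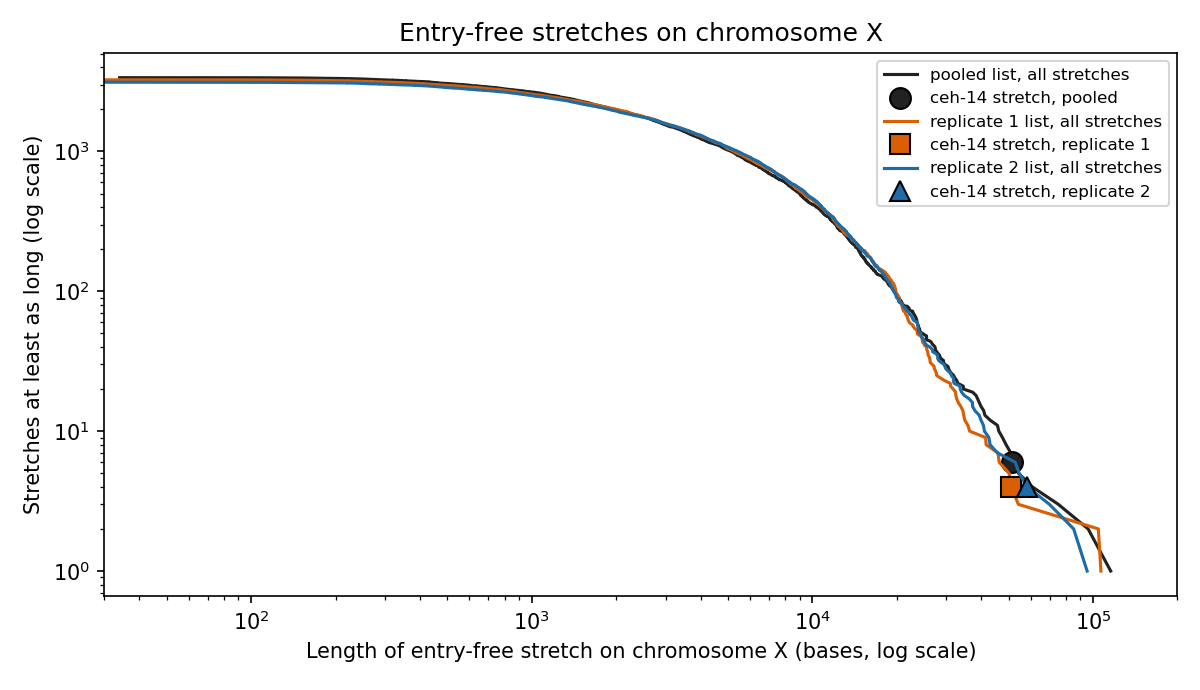
Lengths of the entry-free stretches on chromosome X, in bases on a log axis, against the number of stretches at least as long, on a log axis, for the pooled list and each replicate's list. Large markers are the stretch that holds ceh-14, which has 6 stretches at least as long in the pooled list and 4 in each replicate, itself included.

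The single IDR peak among the members lay deep inside lim-7, the worm's Islet-type LIM homeobox gene (WBGene00002989, chromosome I, 5716574 to 5725809, plus strand). The peak spanned 5722111 to 5722566, with its summit in intron 7 of 8 and 5765 bases from the start. Its pooled rank was 1496 and its signal value 77.6, near the low end of the IDR list, whose weakest peak had 73.0. It had rank 2560 of 21217 and a signal value of 29.7 in replicate 1, and rank 990 of 19577 and 53.0 in replicate 2. Both replicates therefore had the entry, and only in replicate 2 did it fall among the 1681 strongest. The non-coding RNA gene C04F1.4, on the other strand, had its start 208 bases from the summit, nearer than lim-7's own. Within 50 bases of the pooled summit lay both TAATTA and TAATTG. By the replicates' own summits, replicate 1 had only TAATTA in that span and replicate 2 only TAATTG. Replicate 2 had a further entry in intron 4, at 4009 bases with rank 10978, which had no counterpart in the pooled list or in replicate 1.

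lin-11, which acts in vulval development and in interneurons such as AIZ, had 3 pooled entries, all inside the gene (WBGene00003000, chromosome I, 10248288 to 10255327, plus strand). The strongest lay in intron 1, 349 bases from the start, with rank 3596 and a signal value of 50.2. Replicate 1 had it at rank 10118, with a signal value of 17.4, and replicate 2 had no entry there by any rule of overlap. Among pooled entries the closest to a start after that of lim-4, it was thus met in the pooled list and replicate 1 alone.

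The second lin-11 entry, in intron 7 at 4550 bases, was met in both replicates. Its pooled rank was 4573 and its pooled signal value 45.2, with rank 11840 and 16.3 in replicate 1, and rank 4711 and 26.0 in replicate 2. The third, in the coding sequence at 6505 bases, had the low pooled rank 19021 and was met in replicate 2 only, at rank 8800. Single replicates added entries that the pooled list lacked, at 34 and 5998 bases in replicate 1 and at 4222 bases in replicate 2. So only the intron 7 entry of lin-11 was held by both replicates.

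lim-4, known for its part in making the AWB olfactory neurons different from AWC, was the 1 member with an entry within 1000 bases of a start in each replicate's list (WBGene00002987, chromosome X, 3869404 to 3873545, minus strand). Its single entry, 3873191 to 3873646, had its summit in the 5′ untranslated region, 126 bases inside the outermost start and 24 bases from the nearest of its 3 annotated starts. In the pooled list it had rank 4788 and signal value 44.2, with rank 5981 and 21.2 in replicate 1 and rank 7032 and 22.2 in replicate 2. The summits of the replicates lay at 132 and 125 bases. In each of these lists the entry ranked above the median and below the 1681 strongest.

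Within 50 bases of the lim-4 summit lay no TAAT, and the GC content there was 54.5%. A TAATTA lay 89 bases upstream of the outermost start, inside the upstream edge of the entry. The 250 bases before that start (ce11, chrX:3873546-3873795, minus strand, 24.4% GC) are shown because they hold this hexamer, with every TAAT and its reverse complement ATTA in capitals.
lim-4 upstream: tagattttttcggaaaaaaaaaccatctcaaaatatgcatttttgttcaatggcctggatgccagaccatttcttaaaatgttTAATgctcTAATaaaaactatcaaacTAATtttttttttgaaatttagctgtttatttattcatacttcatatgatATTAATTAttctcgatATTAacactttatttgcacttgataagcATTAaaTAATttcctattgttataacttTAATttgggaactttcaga
Such letters are common in AT-rich promoters: TAATTA, searched on both strands, was in 15.6% of the windows from 250 bases before to 50 after the outermost start over all protein-coding genes. Among the members, lim-7, lim-4 and lim-6 had it in that window, and ceh-14, ttx-3, mec-3 and lin-11 did not.

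lim-6, which acts in the left ASE taste neuron and in GABA neurons, had 3 pooled entries, all of them nearer to the protein-coding start of another gene (WBGene00002988, chromosome X, 1072452 to 1079452, plus strand). The strongest lay 4878 bases upstream, inside the neighbouring gene mksr-1, a ciliary transition zone gene, and just within the 5000-base limit. Its pooled rank was 5632 and its pooled signal value 41.3, with rank 13634 and 15.3 in replicate 1, and rank 5337 and 24.7 in replicate 2. Another lay between the genes, 2929 bases upstream of lim-6 and 394 bases from the start of mksr-1, with the low ranks 18722 in the pooled list, 18126 in replicate 1 and 19351 in replicate 2. The last, at 6554 bases, lay in a 3′ untranslated region of 1 transcript model and in an intron of the longest, 1643 bases from the start of pfn-3, and was met in replicate 2 only. No entry of any list lay within 1000 bases of a lim-6 start.

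ttx-3, the selector gene of the AIY interneurons, had 1 pooled entry, 1404 bases upstream (WBGene00006654, chromosome X, 11764456 to 11769378, minus strand). Its pooled rank was 11249 and its pooled signal value 30.7, with rank 12719 and 15.8 in replicate 1. Replicate 2 had none in the window, and its nearest upstream summit was 9406 bases away. The entry is the closest to ttx-3's own start in these lists, but it was weak and rested on 1 replicate.

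The ttx-3 summit held TAATTA and was the poorest in GC of the 9 (22.8%), against a median of 40.6% over the 9 and of 40.6% over all pooled summits. The 100 bases on each side of it (ce11, chrX:11770682-11770882, minus strand) are shown beside the like stretch of the lim-6 entry at 2929 bases upstream (ce11, chrX:1069423-1069623, plus strand), the other intergenic entry on that chromosome. Capitals again mark TAAT and ATTA, of which ttx-3 has 4, overlapping ones included, and lim-6 has 2.
ttx-3 summit: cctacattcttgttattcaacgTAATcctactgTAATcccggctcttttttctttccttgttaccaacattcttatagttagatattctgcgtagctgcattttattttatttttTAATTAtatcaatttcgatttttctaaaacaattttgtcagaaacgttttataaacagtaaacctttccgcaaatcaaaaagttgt
lim-6 summit: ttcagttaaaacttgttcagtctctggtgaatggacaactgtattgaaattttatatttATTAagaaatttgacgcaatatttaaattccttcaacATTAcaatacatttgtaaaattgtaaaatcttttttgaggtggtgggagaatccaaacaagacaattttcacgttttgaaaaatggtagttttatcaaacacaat
Over the 9 member summits, TAATTA lay within 50 bases of 2, those of lim-7 and ttx-3, against 8.64% of all 21766 pooled summits. TAATTG lay at 2, those of lim-7 and lin-11 (intron 1), against 8.57%, and within 100 bases it lay at 5 against 16.1%, so this count depends on the span searched. TAATNA lay at 4 against 24.9%, and TAAT alone at 5 against 57.8%, where TAATNA and TAAT include the TAATTA matches. The repeat GAGAGA lay at 2, both of lin-11, against 11.5%. All were searched on both strands, and with 9 summits these counts are a description only.

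mec-3, which with unc-86 specifies the touch receptor neurons and is known to maintain its own expression, had no entry in its window in any list (WBGene00003167, chromosome IV, 10458816 to 10461867, minus strand). It lay in a pooled stretch of 28111 bases without entries, and 73 of the 2870 stretches on chromosome IV were as long or longer. Both replicates had an entry beyond the window, 6855 bases upstream with rank 18316 in replicate 1 and 6897 bases upstream with rank 9319 in replicate 2, and both were nearest to ugt-44. The nearest pooled entry upstream was 14147 bases away. mec-3 and ceh-14 were thus the members with no entry in any of the 4 lists.

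**Figure D3:**
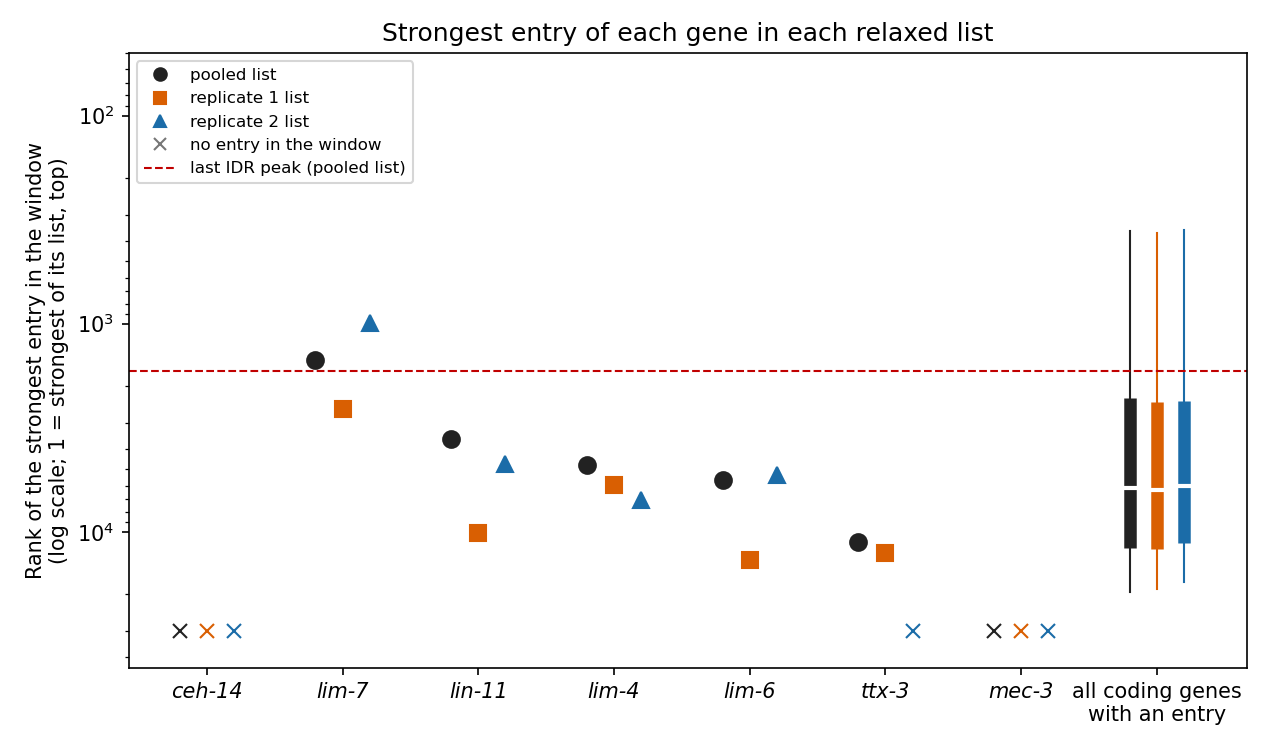
Rank of the strongest entry in the window of each gene, on a log axis with the strongest at the top, in the pooled list and each replicate's list; crosses mark windows without an entry. At right are the protein-coding genes with an entry (line, 5 to 95% of them; bar, 25 to 75%; gap, median), and the dashed line is the last IDR peak, rank 1681. The pooled entry of lim-7 at rank 1496 is the only pooled one above the line, and those of lin-11, lim-4, lim-6 and ttx-3 lie at 3596, 4788, 5632 and 11249.

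The distance to the nearest IDR peak outside the gene varied widely between members. Beyond its 3′ end, ttx-3 had one 6550 bases away, with rank 756. lim-6 had one 8198 bases upstream, with rank 856 and nearest to unc-1, and lim-7 had one 9577 bases upstream, with rank 121 and nearest to pamn-1. For lin-11 the nearest was 13066 bases upstream (rank 424, nearest to csnk-1), for mec-3 20007 bases upstream (rank 550, nearest to egl-21), for ceh-14 26552 bases downstream (rank 355) and for lim-4 44839 bases downstream (rank 1311). Each of the upstream ones was nearest to the start of another gene.

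Related genes were looked at in 5 lists with 36 genes. They were genes that work with the LIM homeobox genes, genes known to be regulated by them, and 13 LIM domain genes without a homeodomain. Of the 36, 2 had an IDR summit within 1000 bases of a start (5.56%, Wilson 95% interval 1.54 to 18.1%), against 6.82% of protein-coding genes. In the gene window 5 of 36 had one (13.9%), against 13.7%. Both of these IDR shares were close to those of all genes. The 13 LIM domain genes, neither partners nor known targets, gave 1 of the 2 and 3 of the 5. In the pooled relaxed list the counts were above the shares of all genes. An entry lay in the window of 29 of the 36 (80.6%, against 70.3%) and near a start of 21 of the 36 (against 42.1%). These higher counts were not tested.

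Among 4 partner genes, 0 had an IDR peak near a start and 1 had one in its window: ldb-1, which encodes the LIM-binding cofactor. The shares of all protein-coding genes were 6.82% and 13.7%. The ldb-1 peak lay in intron 2 of 9, 1723 bases from the nearest ldb-1 start, with pooled rank 334 and a signal value of 148.6. It had rank 437 in replicate 1 and 271 in replicate 2, and so stood among the 1681 strongest of both, which no member's entry did. The ldb-1 window held 11 pooled entries, against a median of 1 over all protein-coding genes, a count not scaled by window length. unc-86, the POU homeobox partner of mec-3, had its strongest entry 2073 bases upstream at rank 1940, just below the IDR peaks and nearest to the start of C30A5.16. ceh-10, the partner of ttx-3 in AIY, had an entry 219 bases upstream at rank 9619, and ttx-1, which acts in AFD, had an entry in an intron at rank 20842.

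The 100 bases on each side of the ldb-1 summit (ce11, chrX:11031321-11031521, plus strand) had 55.7% GC, held GAGAGA and held no TAAT on either strand. Of all IDR summits, 67.0% had TAAT and 40.9% had GAGAGA within 100 bases, so IDR peaks without TAAT were the minority. The ldb-1 stretch, all in lower case, is an example of a strong peak without TAAT, beside the AT-rich ttx-3 and lim-6 stretches above. Member summits were of both kinds: the same span at lim-4 had 55.7% GC, that at the lim-6 entry in the 3′ untranslated region had 51.2% GC, and neither held TAAT.
ldb-1 summit: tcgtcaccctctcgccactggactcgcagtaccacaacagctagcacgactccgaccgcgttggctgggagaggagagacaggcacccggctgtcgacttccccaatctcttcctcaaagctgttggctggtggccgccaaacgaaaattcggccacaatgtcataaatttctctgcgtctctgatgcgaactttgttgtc

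Of 7 touch neuron genes known to depend on mec-3, 0 had an IDR peak near a start or in the window. The shares of all protein-coding genes were 6.82% and 13.7%. A pooled entry in the window was met at 5 of the 7, against 70.3% of protein-coding genes. The strongest near a start was at mec-12, an alpha-tubulin gene, 51 bases upstream with rank 2935 and a signal value of 55.4, and it was met at rank 3038 in replicate 1 and 3122 in replicate 2. mec-4, a subunit of the touch channel, had an entry 4719 bases upstream at rank 2686, nearest to the start of cas-1. mec-10 and mec-18 had no pooled entry in the window. Replicate 2 had an entry in the windows of all 7 genes, those 2 included, against 69.5% of protein-coding genes. Replicate 1 had one in 4, against 70.9%. Of 8 genes known to depend on ttx-3 in AIY, 1 had an IDR peak near a start (12.5%), against 6.82% of protein-coding genes. It was ser-2, a receptor gene, with the peak at rank 1039 in its intron and 725 bases from the nearest of its starts. hen-1, mod-1 and glc-3 had no pooled entry in the window. Of 4 genes known to be regulated by lim-6 or lim-4, 0 had an IDR peak. The shares over protein-coding genes were 6.82% near a start and 13.7% in the window. The strongest entry of the 4 was at unc-25, the GABA synthesis gene, 224 bases upstream at rank 4348.

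LIM domain genes without a homeodomain share the zinc-binding module but act in muscle attachment and the cytoskeleton. Of these 13 genes, 1 had an IDR peak near a start (7.69%, Wilson interval 1.37 to 33.3%), against 6.82% of protein-coding genes. That interval includes the share of all genes. In the window 3 of the 13 had one (23.1%), against 13.7%, a difference that was not tested. The gene with one near a start was unc-115, an actin-binding protein gene, with a summit 96 bases upstream, pooled rank 239 and a signal value of 170.5. It had rank 210 in replicate 1 and 300 in replicate 2. The others in the window were tes-1, with a summit 1311 bases upstream at rank 515, and unc-97, a PINCH-type gene of muscle attachments, with a summit 1113 bases upstream at rank 1305.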

How the data were processed

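Peak lists of CEH-14-GFP immunoprecipitation from 2 biological replicates of 1 group were used as the authors deposited them. They are narrowPeak lists of IDR peaks, of pooled relaxed entries and of each replicate's relaxed entries, per the sample records, which derive them from alignments and 1 further file. The signal value of each entry is a score of the authors, as deposited, scaled separately per list, and it was used only to rank and describe entries within that list. For the aligner, the caller, their versions and the cutoff of IDR, the sources used here give nothing. Without read numbers in the lists, sequencing depth is unknown, and Wilson intervals cover counting error only.

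Coordinates are 1-based ce11, the sequence of WBcel235; no entry passed a reference chromosome end. Gene models were Ensembl release 115 and sequence was RefSeq's copy of that assembly. The ce10 lists were compared by stretch length alone. Summits (start plus offset) were counted within 5000 bases upstream of the outermost start through the gene body, and within 1000 bases of any annotated start. Entries of different lists matched when each covered 50% of the other. Counting was tested on simulated data. No test of groups was possible. The members and lists were chosen with earlier results of these data known. All members are named, with the gene of the nearest start to an entry and related genes with IDR peaks; further related genes were named after their values were seen. Python 3.11.15, pandas 2.3.3 and scipy 1.17.1 were used. Alternatives changed window, distance, list depth, matching rule and replicate.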

Additional observations from a re-analysis of the deposited data

How the results depend on the processing

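Of the values recomputed under alternatives for the results reported, 36 stayed within 1.5 times, or for the stretch within the replicates' SD, and 18 moved. The count of members with an IDR peak in the window, 1, became 2 with 10000 bases upstream (19.9% of protein-coding genes), 3 with pooled entries to rank 5000 (30.7%), and 0 among the stronger 50% of the IDR peaks (7.53%) or when the nearest start of any gene had to be the member's (4.64%); leaving out a replicate gave 0 to 1, with 0 without replicate 2. Near a start it was 0 except with pooled entries to rank 5000, where it was 2 (15.8%). The count with a pooled entry in the window, 5, became 3 by nearest start of any gene (40.4%) and 3 to rank 5000 (30.7%), and that with an entry in both replicates, 4, became 2 by nearest start of any gene (26.8%). A pooled entry near a start was met at 1 to 2 members with a replicate left out (1 without replicate 1), and TAATTA at 1 to 2 summits. Without replicate 1 the 1 summit with TAATTA was that of lin-11 at 4222 bases, and neither lim-7 nor ttx-3 kept it. Searched over the whole entry, TAATTA lay in 3 of the 9 pooled entries. The count over the 36 related genes, 2 (6.82% of protein-coding genes), became 1 at 500 bases (5.12%), 5 at 2000 bases (9.57%), 1 with the outermost start (6.32%), 1 among the stronger 50% (3.74%) and 8 to rank 5000 (15.8%). The stretch around ceh-14 was 51168 to 58293 bases with a replicate left out and 108444 bases in the IDR list. In the IDR list it was not rare, since 52 of 310 stretches on chromosome X were as long or longer. There lin-11, ttx-3 and lim-4 lay in longer stretches, of 233455, 176777 and 169538 bases. Counting only the nearest protein-coding start was added after seeing the data; the count with an IDR peak stayed 1 (6.71%), that with a pooled entry became 4 (46.9%) and that with an entry in both replicates became 3 (33.3%). No cause of these changes was tested beyond what each alternative is built to do. No paired analysis was possible because there is 1 group. The number of entries and of members limits precision, and depth is unknown.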

Other observations

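Entries of 1 replicate that the pooled list lacked at 50% reciprocal overlap were met in the members' windows 2 times among the 9 entries of replicate 1 and 2 times among the 9 of replicate 2. Those of replicate 1 were both in lin-11, and those of replicate 2 were in lin-11 and lim-7. No share over all entries of each replicate is set beside these counts, so they cannot be called a trait of the members. At mec-3, where both replicates had an entry 6855 and 6897 bases upstream, the pooled list had its nearest upstream entry at 14147 bases.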
